A study of Mus musculus with 2 samples.

Results

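The 10 imprinted genes described here are Peg3, Peg10, Igf2, Mest and Snrpn, which are known as expressed from the paternal allele, and Grb10, Cdkn1c, Phlda2, Igf2r and H19, which are known as expressed from the maternal allele. They were chosen by gene symbol, and all 10 were found among the 27998 genes that each count matrix lists. The WT group was 1 droplet single-cell library (10x Genomics) of AB2.2 cells, an established mouse embryonic stem cell line. The PHD2-KO group was 1 library of AB2.2 cells in which PHD2 was knocked out. PHD2 is the prolyl hydroxylase, encoded by Egln1, that marks hypoxia-inducible factor (HIF) for destruction when oxygen is present. Both groups were differentiated for 4 days toward mesendoderm, a transient population that gives rise to both mesoderm and endoderm, and were made into suspensions with trypsin. The sources used here do not give the altered part of Egln1 or say whether the knockout line is 1 clone.

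Imprinted genes carry DNA methylation marks set in the egg or the sperm, and these marks keep an allele silent according to the parent it came from. Many of the genes lie in clusters that share a control region, such as the Igf2 and H19 pair or the neighbours Cdkn1c and Phlda2. In the embryo and placenta, paternally expressed genes are known mostly for promoting growth and maternally expressed genes mostly for restraining it. UMI counts (unique molecular identifiers, which count captured RNA molecules) do not tell the alleles apart, so the levels below are sums over both alleles, and the parent of origin is background.

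After limits on cells, 8515 WT cells (median 20444 UMIs) and 6927 PHD2-KO cells (median 20999 UMIs) were kept, and 22 cell barcodes occurred in both libraries. Levels are UMIs summed over cells and scaled to a group total of 1000000 (CPM). With 1 library a group no test was possible. Each interval below is at 95% and covers counting error only, not the spread between cultures or clones. Intervals of levels and ratios also leave out the uneven spread of a gene over cells, described below. A gene counts as measured if the group with more of it reaches 5 CPM, and as higher or lower at a 1.5-fold difference. Because the length of transcript read is not given, levels are compared between groups for a gene, not between genes. Egln1 was at 18.2 CPM in WT and 13.7 CPM in PHD2-KO cells, which does not check the knockout, since the altered part is unknown. The pluripotency genes Pou5f1 (143 and 113 CPM), Nanog (35.1 and 45.4 CPM) and Dppa5a (599 and 594 CPM) were present in both libraries. Utf1 (423 and 103 CPM), Sox2 (38.4 and 25.1 CPM) and Tdgf1 (168 and 313 CPM) were present too but passed the 1.5-fold mark. The streak genes T (5.81 and 318 CPM) and Mixl1 (0.947 and 73.6 CPM) differed as well.

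Cells of both libraries fell into classes by the share of their UMIs that came from chromosome 8 genes, with class means of 5.02% and 7.15% of UMIs. The low class held 14.8% of WT cells (1257) and 44.2% of PHD2-KO cells (3059). In the PHD2-KO low class, 489 of 511 measured chromosome 8 genes were below their level in the high class. Their median ratio was 0.738, against 1.05 for genes on other chromosomes. The classes were made from the summed share of the chromosome 8 genes, so their lower levels follow in part from the split. No gene of the 10 lies on chromosome 8, but Egln1 does, and the part of the classes in its levels was not tested. Since the classes stand at different shares in the 2 libraries, the levels of the imprinted genes are also given within them.

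Of the 8 imprinted genes that were measured, 5 were higher in the PHD2-KO library (Peg3, Peg10, Cdkn1c, Phlda2 and Igf2r), 1 was lower (Grb10), and Mest and Snrpn lay between. Among all 8537 measured genes 11.7% were higher and 2.35% were lower. The higher genes came from both parental classes, with 2 of 4 measured paternally expressed and 3 of 4 measured maternally expressed genes. The median log2 ratio (pseudocount of 1 CPM) was 1.06 over the paternally expressed and 0.74 over the maternally expressed genes, against 0.16 over all measured genes. Size factors taken from the median of ratios moved the all-gene median from 0.16 to 0.02 and left these calls as they were.

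**Figure D1:**
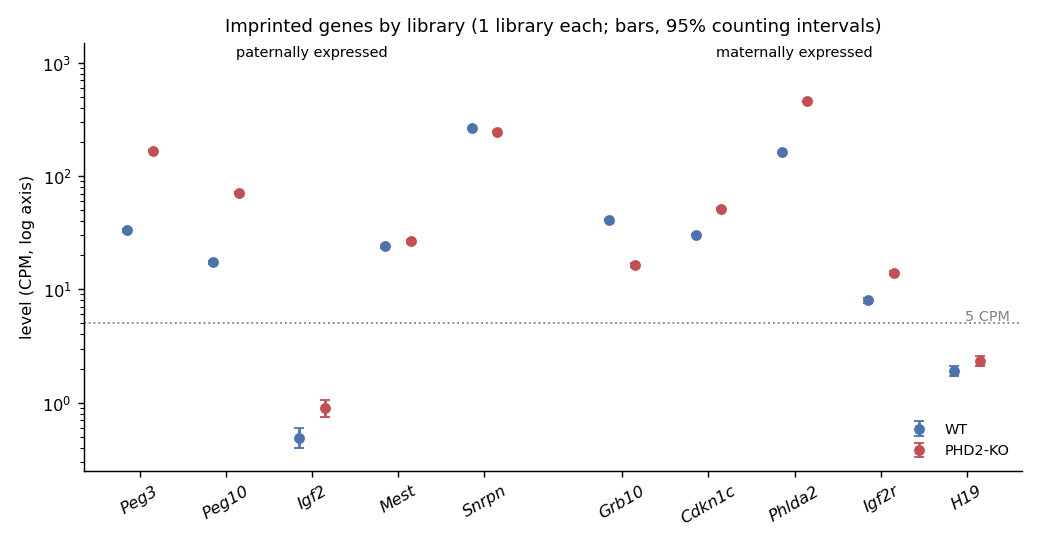
Level of each imprinted gene in the WT (blue) and PHD2-KO (red) libraries, in CPM on a log axis, with 95% counting intervals. The dotted line marks 5 CPM, below which Igf2 and H19 lie in both libraries. Peg3, Peg10, Cdkn1c, Phlda2 and Igf2r stand higher in PHD2-KO and Grb10 stands lower.

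Among the paternally expressed genes, Peg3 and Peg10 differed by the widest ratios. Peg3 (ENSMUSG00000002265, mm10 chromosome 7, 6703892 to 6730431, minus strand) encodes a large zinc finger protein of the nucleus. Its level was 33.1 CPM in WT cells (32.3 to 33.9) and 167 CPM in PHD2-KO cells (165 to 169), a ratio of 5.05 (4.92 to 5.19). Peg10 (ENSMUSG00000092035, chromosome 6, 4747306 to 4760517, plus strand) derives from a retrotransposon and is needed for the placenta. Its level was 17.3 CPM in WT (16.7 to 17.9) and 71.2 CPM in PHD2-KO (69.9 to 72.5), a ratio of 4.11 (3.96 to 4.27). For both genes the counting intervals of the libraries lay far apart.

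Mest and Snrpn differed little. Mest (ENSMUSG00000051855, chromosome 6, 30723547 to 30748465, plus strand), a hydrolase-like protein of mesodermal tissues, was at 24.1 CPM in WT and 26.6 CPM in PHD2-KO cells, a ratio of 1.11 (1.06 to 1.15). Snrpn (ENSMUSG00000102252, chromosome 7, 59982495 to 60140219, minus strand), which encodes a spliceosome protein, had levels of 262 and 245 CPM, a ratio of 0.932 (0.920 to 0.945). Both ratios were outside counting error and below the 1.5-fold mark. Igf2 (ENSMUSG00000048583, chromosome 7, 142650766 to 142666816, minus strand), a fetal growth factor, was not measured: it had 98 UMIs in the WT library (0.486 CPM) and 141 in the PHD2-KO library (0.895 CPM).

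Of the maternally expressed genes, Phlda2 had the highest ratio and Grb10 was the 1 gene called lower. Phlda2 (ENSMUSG00000010760, chromosome 7, 143501545 to 143503150, minus strand) encodes a small pleckstrin homology protein that restrains placental growth. It was at 163 CPM in WT (161 to 164) and 455 CPM in PHD2-KO (452 to 458), a ratio of 2.80 (2.76 to 2.84). Cdkn1c (ENSMUSG00000037664, chromosome 7, 143458339 to 143461050, minus strand), its neighbour, encodes an inhibitor of cyclin-dependent kinases. It was at 30.1 CPM in WT (29.3 to 30.9) and 50.9 CPM in PHD2-KO (49.8 to 52.1), a ratio of 1.69 (1.64 to 1.75). Both genes of this cluster were thus higher, by unequal ratios.

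Igf2r (ENSMUSG00000023830, chromosome 17, 12682406 to 12769664, minus strand) encodes the receptor that carries IGF2 to lysosomes for breakdown. It was at 8.01 CPM in WT and 13.95 CPM in PHD2-KO cells, a ratio of 1.74 (1.63 to 1.86). Grb10 (ENSMUSG00000020176, chromosome 11, 11930508 to 12038683, minus strand) encodes an adaptor that damps insulin and IGF receptor signalling. It was at 40.8 CPM in WT (39.9 to 41.7) and 16.4 CPM in PHD2-KO (15.7 to 17.01), 2.49-fold lower in PHD2-KO (2.39 to 2.61). H19 (ENSMUSG00000000031, chromosome 7, 142575529 to 142578143, minus strand), a long noncoding RNA, was not measured, with 383 UMIs in WT (1.90 CPM) and 366 in PHD2-KO (2.32 CPM).

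The promoter windows of 4 of the called genes are shown because PHD2 acts through HIF, whose core binding motif is ACGTG or GCGTG. The sequences are the RefSeq windows of build GRCm38.p6 from 250 bases before to 50 bases after a start site, of which 7 of the 10 genes had at least 1. Capitals mark ACGTG or GCGTG on either strand, and the palindrome CACGTG counts once on each strand.
Peg3, chr7:6730370-6730669, minus strand: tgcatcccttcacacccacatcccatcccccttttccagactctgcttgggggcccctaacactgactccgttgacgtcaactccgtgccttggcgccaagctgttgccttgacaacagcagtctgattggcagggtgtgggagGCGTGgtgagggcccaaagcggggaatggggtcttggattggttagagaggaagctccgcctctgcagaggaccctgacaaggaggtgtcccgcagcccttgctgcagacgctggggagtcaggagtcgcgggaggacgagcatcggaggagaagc
Phlda2, chr7:143502475-143502774, minus strand: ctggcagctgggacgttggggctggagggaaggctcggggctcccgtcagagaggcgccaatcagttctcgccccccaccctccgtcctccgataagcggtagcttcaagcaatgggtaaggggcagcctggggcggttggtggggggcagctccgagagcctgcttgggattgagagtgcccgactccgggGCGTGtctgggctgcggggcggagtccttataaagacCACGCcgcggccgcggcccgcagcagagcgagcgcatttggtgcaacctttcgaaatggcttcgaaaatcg
Igf2r, chr17:12769657-12769956, minus strand: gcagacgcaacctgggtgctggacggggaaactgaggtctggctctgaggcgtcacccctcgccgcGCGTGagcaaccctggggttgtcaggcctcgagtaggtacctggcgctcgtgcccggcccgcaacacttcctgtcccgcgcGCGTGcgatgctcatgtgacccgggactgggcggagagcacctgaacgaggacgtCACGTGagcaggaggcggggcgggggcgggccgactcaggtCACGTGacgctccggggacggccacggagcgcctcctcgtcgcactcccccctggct
Grb10, chr11:12037371-12037670, minus strand: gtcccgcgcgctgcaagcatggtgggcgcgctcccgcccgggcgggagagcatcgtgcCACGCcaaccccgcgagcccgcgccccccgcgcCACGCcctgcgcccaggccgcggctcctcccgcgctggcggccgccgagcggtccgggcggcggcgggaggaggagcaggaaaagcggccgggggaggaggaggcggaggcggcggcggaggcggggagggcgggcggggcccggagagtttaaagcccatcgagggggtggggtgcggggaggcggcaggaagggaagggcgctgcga
The Peg3 window holds 1 match to GCGTG, the Phlda2 window 2 and the Grb10 window 2. The Igf2r window holds 2 matches to GCGTG and 4 to ACGTG, the latter from 2 CACGTG palindromes. Of all 32851 windows, 43.8% hold ACGTG or GCGTG. A second Grb10 window, at chr11:12027922-12028221, holds neither. Genes without a call hold these motifs too. GCGTG is in every Snrpn window and ACGTG in the Igf2 window from 142658755. The other Igf2 windows and the Mest windows hold neither. The T-box motif TCACACCT, found in 1.28% of all windows, was in none of the windows of the 10 genes. TGCCGC, the letters ZFP57 reads at imprinting control regions, is in 11.6% of all windows. The Mest windows from 30737800 and 30737803 on chromosome 6, which overlap, each hold 2 matches to it, and the Grb10 window shown, the Snrpn window from 60005150 and the Igf2 window from 142661222 hold 1 each. Base composition differed among the windows shown, from 61.3% G and C in Peg3 to 80.0% in Grb10, against a median of 52.7% over all windows.

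The share of cells with at least 1 UMI was taken after random thinning of each cell to 14000 UMIs, done for 7742 WT and 6283 PHD2-KO cells (median 21078 and 21844 UMIs before thinning). Peg3 UMIs were found in 31.8% of WT cells (30.8 to 32.9) and 70.0% of PHD2-KO cells (68.9 to 71.2). Peg10 UMIs were found in 14.03% (13.3 to 14.8) and 41.7% (40.5 to 43.0). For both genes the difference was thus one of more cells with a UMI as well as of a higher sum. Grb10 went the other way, from 39.4% of WT cells (38.3 to 40.5) to 16.3% of PHD2-KO cells (15.4 to 17.2). Phlda2 was found in 72.6% and 79.7% of cells, a small difference in share beside its 2.80-fold difference in level. Cdkn1c was found in 26.2% and 34.0%, Igf2r in 10.4% and 17.03%, Mest in 24.4% and 26.3%, and Snrpn in 93.5% and 90.8% of WT and PHD2-KO cells.

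Without thinning the shares were larger, at 42.9% and 77.3% for Peg3 and 51.1% and 22.1% for Grb10, with each gene's order between the libraries the same. H19 UMIs were in 1.29% of WT and 2.32% of PHD2-KO cells, and Igf2 UMIs in 0.504% and 1.07%. Free RNA in droplets can give such low shares, and the libraries hold no cell type known to lack these genes that could serve as a background. In WT and PHD2-KO, barcodes under the limit of 1000 genes held 3 and 8 H19 UMIs (7.18 and 28.3 CPM) and 1 and 4 Igf2 UMIs (2.39 and 14.2 CPM). They held 48 and 95 Phlda2 UMIs (115 and 336 CPM). In kept cells H19 was at 1.90 and 2.32 CPM and Igf2 at 0.486 and 0.895 CPM, below their levels in these barcodes. The part of free RNA in the H19 and Igf2 results was not tested.

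Most of the imprinted genes were spread more unevenly over cells than other genes of like level. The measure was the variance of the thinned UMIs over their mean, which is 1 for pure counting, set beside genes of like mean. Phlda2 in PHD2-KO cells had a ratio of 26.0, against a median of 1.32 over 117 like genes. A cell held up to 370 Phlda2 UMIs there, and the 10 cells with the most held 3.77% of its UMIs. The ratio without these cells was not computed. In WT cells the Phlda2 ratio was 3.67, against 1.13 for like genes. Peg3 (1.46 in WT and 3.80 in PHD2-KO), Peg10 (2.61 and 3.70) and Cdkn1c (2.68 and 3.86) were also above the medians of their like genes, which were between 1.04 and 1.16. Igf2r stood close to its like genes, at 1.06 in WT (median 1.03) and 1.03 in PHD2-KO cells (median 1.05). Grb10 was at 1.21 and 1.45, against medians of 1.07 and 1.05.

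For comparisons within a library, cells were grouped by their thinned UMIs of T (Brachyury), a transcription factor of the primitive streak. Cells were T none at 0 UMIs, T low at 1 to 3 and T high at 4 or more. The WT library held 7250, 486 and 6 such cells, and the PHD2-KO library 1147, 2225 and 2911. The states are ranges of a count, not cell types. Of the WT T low cells 420 had 1 UMI, and 1062 PHD2-KO cells had 3 or 4 UMIs and lay next to the limit. Nor are the states an order of differentiation. A thinned UMI of Mesp1, a gene of nascent mesoderm, was in 31.6% of T none and 32.7% of T high PHD2-KO cells. The 6 WT T high cells are too few for a comparison. They held 13 Peg3, 17 Peg10, 22 Phlda2 and 2 Grb10 UMIs.

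Within T none cells, the calls between the libraries were those of all cells, with 5 imprinted genes higher and 1 lower of 8 measured (all measured genes: 12% higher and 1.82% lower). Peg3 was at 31.9 CPM in WT and 159 CPM in PHD2-KO T none cells, a ratio of 4.97 (4.78 to 5.17). Peg10 had levels of 16.4 and 80.9 CPM, a ratio of 4.92 (4.65 to 5.20). Phlda2 had levels of 163 and 743 CPM, a ratio of 4.55 (4.47 to 4.63), above its ratio of 2.80 in all cells. Grb10 was at 40.8 and 20.04 CPM, 2.04-fold lower (1.87 to 2.23). These states rest on thinned counts: in the full counts, from which the levels come, the T none cells had T at 2.19 CPM in WT and 25.4 CPM in PHD2-KO. In these cells the summed level of the 6 streak and mesoderm markers was 52.3 CPM in WT and 410 CPM in PHD2-KO, and the part of T and these markers in the result was not tested.

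In T low cells, 5 genes were higher and 2 lower in PHD2-KO of 9 measured (all measured genes: 8.35% higher and 2.7% lower), the second lower gene being H19. Peg3 was at 48.8 CPM in WT and 163 CPM in PHD2-KO T low cells, a ratio of 3.33 (3.08 to 3.62). Phlda2 had levels of 152 and 583 CPM, a ratio of 3.84 (3.67 to 4.02). Grb10 was at 42.7 and 17.5 CPM, 2.44-fold lower (2.20 to 2.72). The H19 call rests on 1 WT cell, described below. In their full counts the T low cells had T at 53.4 CPM in WT and 143 CPM in PHD2-KO, and Mesp1 at 0.154 and 282 CPM. The streak and mesoderm markers summed to 150 and 717 CPM, and their part in the result was not tested.

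Cells without a thinned UMI of T or of Mesp1, which encodes a transcription factor of nascent mesoderm, numbered 7205 in WT and 784 in PHD2-KO. Of 8 measured genes 5 were higher and 1 lower there (all measured genes: 12.9% higher and 1.31% lower). In their full counts T was at 2.19 and 22.8 CPM, Mesp1 had 18 and 102 UMIs, and the streak and mesoderm markers summed to 51.8 and 138 CPM, whose part in the result was not tested. Peg3 had levels of 31.9 and 108 CPM, a ratio of 3.39 (3.22 to 3.57), and Phlda2 of 163 and 426 CPM, a ratio of 2.61 (2.55 to 2.68). Peg10 was at 16.5 and 86.1 CPM, its highest ratio between the libraries at 5.22 (4.91 to 5.54). Mest, at 24.0 and 36.0 CPM, was called higher here with a ratio of 1.5002 (1.38 to 1.63), while Igf2r, at 7.94 and 11.4 CPM, was not, with a ratio of 1.44 (1.24 to 1.66).

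**Figure D2:**
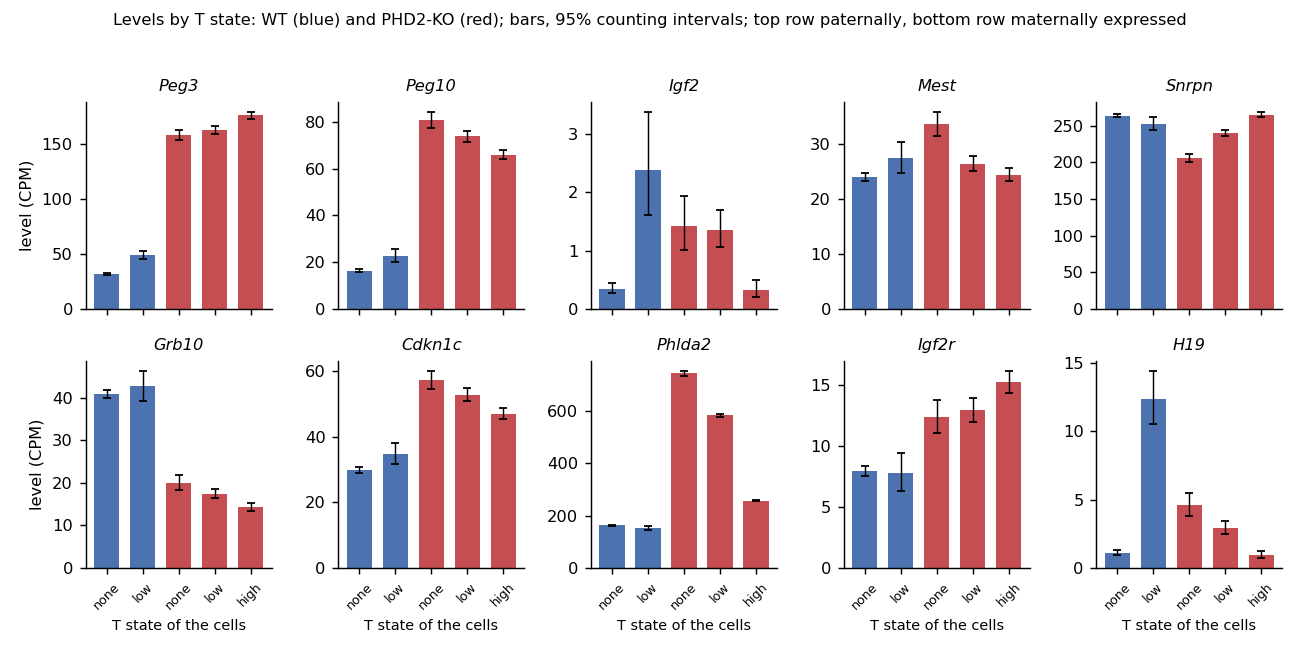
Levels in CPM by T state of the cells in WT (blue; none and low) and PHD2-KO (red; none, low and high), with 95% counting intervals. Phlda2 is at 743, 583 and 258 CPM along the PHD2-KO states, and the WT T low bar of H19 comes mostly from 1 cell.

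Among the PHD2-KO cells, T high against T none gave 0 imprinted genes higher and 1 lower of 8 measured (all measured genes: 2.95% higher and 2.97% lower). The lower gene was Phlda2, at 743 CPM in T none, 583 CPM in T low and 258 CPM in T high cells, 2.88-fold lower in T high (2.83 to 2.94). Every step of Phlda2 was outside counting error, and even its T high level was above the 163 CPM of WT T none cells. The other measured genes differed by less than 1.5-fold. T low against T none gave 0 higher and 0 lower of 8 measured (all measured genes: 0.422% higher and 1.04% lower). Snrpn was at 206, 240 and 265 CPM and Igf2r at 12.3, 12.9 and 15.2 CPM along the states, and Mest was at 33.7, 26.5 and 24.4 CPM. Grb10 was at 20.04, 17.5 and 14.3 CPM, so that it too was lowest in T high cells.

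The unmeasured pair H19 and Igf2 was also lowest in T high cells. H19 was at 4.58, 2.96 and 0.956 CPM in T none, T low and T high PHD2-KO cells, from 126, 158 and 67 UMIs, and Igf2 at 1.42, 1.35 and 0.328 CPM, from 39, 72 and 23 UMIs. By share of cells, H19 was found in 5.32%, 2.61% and 0.928% of these states. Peg3 and Phlda2 diverged in share as in level: Peg3 was found in 57.8%, 65.3% and 78.5% of cells and Phlda2 in 84.5%, 82.7% and 75.6%.

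In the WT library, T low against T none gave 2 genes higher and 0 lower of 9 measured (all measured genes: 0.373% higher and 0.186% lower), namely Peg3 and H19. Peg3 was at 31.9 CPM in T none and 48.8 CPM in T low cells, a ratio of 1.53 (1.41 to 1.66). Peg10 had levels of 16.4 and 22.8 CPM, a ratio of 1.38 (1.22 to 1.56). Phlda2, which fell along the PHD2-KO states, was at 163 and 152 CPM in the WT states, and Grb10 at 40.8 and 42.7 CPM. Peg3 in WT stood just past the 1.5-fold mark, and with T states from unthinned counts or without doublet removal it was not called.

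The WT H19 level in T low cells, 12.4 CPM against 1.13 CPM in T none cells, came mostly from 1 cell. That cell held 148 of the 383 H19 UMIs of the library, together with 21 of its 98 Igf2 UMIs, 57 Cdkn1c UMIs, 3 T UMIs and 46212 UMIs in all. It held 5 UMIs of the 8 trophoblast markers, 1 of the 8 fibroblast markers and 0 of the 8 endoderm markers. Without it H19 in T low cells was at a ratio of 0.892 to T none cells, and the call was gone. The ratio of PHD2-KO over WT for H19 in all cells was 1.99 without it and 1.22 with it. The cell with the next most H19 UMIs in the WT library held 8.

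H19 and Igf2 lie beside each other and share enhancers, so their UMIs were also counted in the same cells. Among PHD2-KO cells with an H19 UMI, 7 of 146 (4.79%; 1.95 to 9.63) also had an Igf2 UMI, against 0.978% of cells without H19 (0.747 to 1.26). In WT it was 3 of 100 (3%; 0.623 to 8.52) against 0.471% (0.330 to 0.652). In the PHD2-KO library the counting intervals did not overlap, and in WT they just did. These are few cells, and the 3 WT cells include the cell with 148 H19 UMIs described above. Whether the cells with both genes share a state was not tested.

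PHD2-KO cells were then divided by UMIs of T and Mesp1 into 784 cells with neither, 3404 with T only, 1732 with both and 363 with Mesp1 only. Phlda2 and Peg3 differed more with Mesp1 than with T. Phlda2 was at 426 CPM in cells with neither, 238 CPM with T only, 716 CPM with both and 1444 CPM with Mesp1 only. Peg3 was at 108, 138, 235 and 270 CPM in the same order. Over all PHD2-KO cells both genes were thus highest in Mesp1 only cells and higher with both than with T only. The T only state was the lowest for Phlda2 and the state with neither the lowest for Peg3. This order of Peg3 did not hold within each chromosome 8 class, as given below.

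With T and Mesp1 against T only, 2 imprinted genes were higher and 0 lower of 8 measured (all measured genes: 1.62% higher and 2.55% lower). Phlda2 had a ratio of 3.01 (2.96 to 3.07) and Peg3 a ratio of 1.702 (1.66 to 1.75). Cdkn1c stayed below the mark, at 43.8 and 60.9 CPM, a ratio of 1.39 (1.32 to 1.46). Peg10 went the other way, from 77.7 CPM with T only to 52.8 CPM with both, 1.47-fold lower (1.40 to 1.55), so the paternally expressed Peg3 and Peg10, which were both higher in the PHD2-KO library, differed in opposite directions here.

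With T only against neither, 0 genes were higher and 1 lower of 8 measured (all measured genes: 2.15% higher and 2.34% lower), which was Phlda2, 1.79-fold lower (1.75 to 1.84). With Mesp1 only against neither, 3 were higher and 0 lower of 9 measured (all measured genes: 2.96% higher and 6.14% lower). These were Phlda2 with a ratio of 3.39 (3.29 to 3.49), Peg3 with 2.50 (2.35 to 2.65) and H19 with 1.56 (1.07 to 2.25), the last from 74 and 52 UMIs. H19 was measured only through Mesp1 only cells, at 6.08 CPM against 3.91 CPM with neither. No lower call was thus possible for it. Snrpn was lowest in Mesp1 only cells, at 180 CPM against 218 CPM with neither and 257 CPM with T only.

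**Figure D3:**
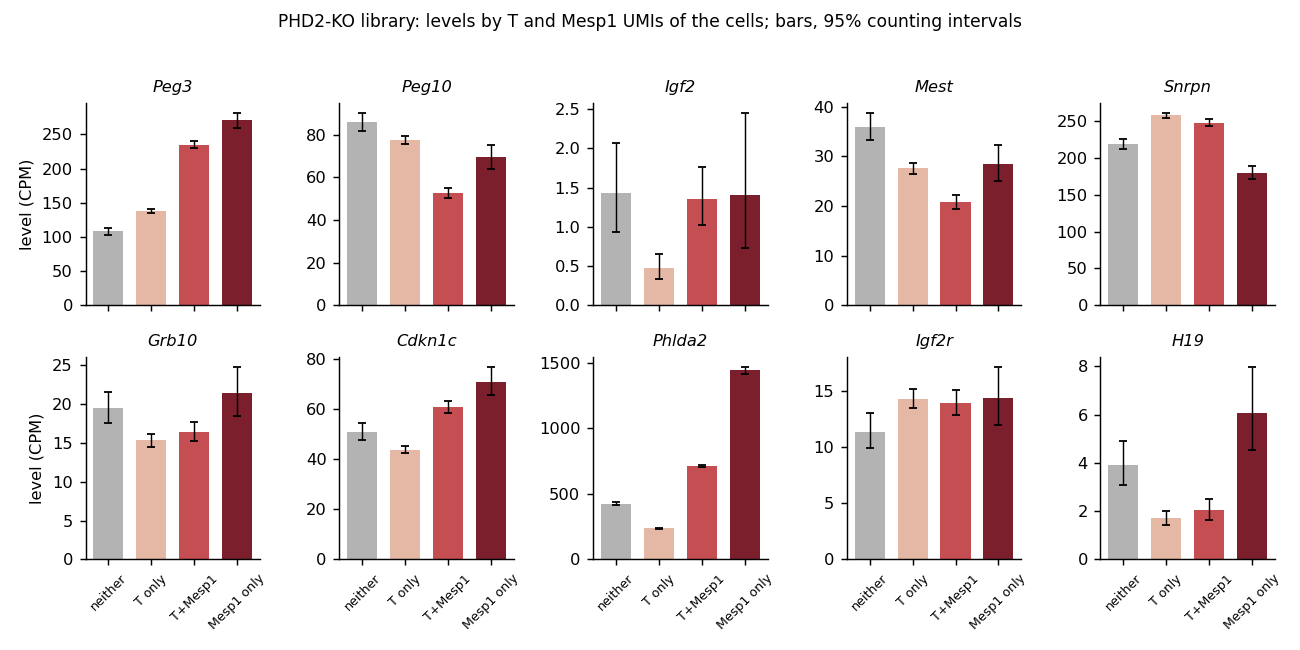
Levels in CPM in the PHD2-KO library by whether a cell had thinned UMIs of T, Mesp1, both or neither, with 95% counting intervals. Over all cells of the library, Phlda2 and Peg3 are highest in Mesp1 only cells (1444 and 270 CPM), and Peg10 is lowest with both genes (52.8 CPM). Within the high chromosome 8 class, Peg3 is highest with both genes.

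Within the PHD2-KO library, 4 imprinted genes were higher in the low chromosome 8 class than in the high class and 0 were lower, of 8 measured (all measured genes: 2.58% higher and 2.54% lower). Phlda2 was at 259 CPM in the high class and 689 CPM in the low class, a ratio of 2.66 (2.61 to 2.70). Grb10 had levels of 9.34 and 24.8 CPM, a ratio of 2.65 (2.44 to 2.89). Peg3 had levels of 123 and 221 CPM, a ratio of 1.80 (1.76 to 1.85), and Cdkn1c of 39.9 and 64.2 CPM, a ratio of 1.61 (1.54 to 1.68). Peg10 was lower in the low class, at 82.5 and 57.6 CPM, without passing the mark.

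Of these genes, only Peg3 was called higher in the low class of the WT library too. There Peg3 was higher and Cdkn1c lower in the low class (all measured genes: 2.23% higher and 1.23% lower), Peg3 at 30.8 and 47.2 CPM and Cdkn1c at 31.7 and 20.3 CPM in the high and low classes. Phlda2 was at 165 and 147 CPM. Grb10 was at 40.0 and 45.4 CPM, higher in the low class by a ratio of 1.13 (1.07 to 1.20), below the mark. Cdkn1c thus went in opposite directions in the 2 libraries. With 1 library a group, the difference between the libraries in this pattern has no test.

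Between the libraries, Grb10 was lower in both classes: 1.83-fold lower in low class cells (45.4 and 24.8 CPM) and 4.29-fold lower in high class cells (40.0 and 9.34 CPM). Peg3 had ratios of 4.68 and 3.98 in the low and high classes, Peg10 of 2.97 and 4.87, and Igf2r of 1.93 and 1.54, so all 3 kept their call in both. Phlda2 had a ratio of 4.68 in the low class and 1.57 in the high class. Cdkn1c had a ratio of 3.16 in the low class and 1.26 in the high class, where it was not called. The higher Phlda2 and Cdkn1c levels of the PHD2-KO library were thus mainly those of its low class cells.

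The T states of the PHD2-KO cells were also read within the classes. Peg3, which was nearly level along T in all cells, went in opposite directions: in the low class it was at 277 CPM in T none and 199 CPM in T high cells, 1.39-fold lower (1.34 to 1.46), and in the high class at 81.8 and 154 CPM, a ratio of 1.88 (1.77 to 1.997). Phlda2 fell along T in both, from 1319 to 337 CPM in the low class and from 369 to 177 CPM in the high class. Cdkn1c fell by 1.55-fold in the low class, from 83.4 to 53.7 CPM, and was at 40.3 and 40.2 CPM in the high class. In all, 4 of 9 measured genes were lower (Mest, Cdkn1c, Phlda2 and H19) and 0 higher in T high cells of the low class (all measured genes: 3.27% lower and 3.89% higher), and of 8 measured 2 were lower (Grb10 and Phlda2) and 1 higher (Peg3) in the high class (3.47% lower and 3.13% higher). In the low class H19 was measured only through T none cells, at 5.36 CPM against 0.932 CPM in T high cells.

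The Mesp1 pattern of Phlda2 was present in both classes. With T and Mesp1 against T only, the low class gave 2 genes higher (Peg3 and Phlda2) and 1 lower (Peg10) of 8 measured (all measured genes: 2.26% higher and 4.76% lower), and the high class 1 higher (Phlda2) and 0 lower (0.94% higher and 0.729% lower). Phlda2 was at 307 and 974 CPM in the low class and 187 and 363 CPM in the high class. Mesp1 only cells of the low class had the highest Phlda2 level of any state, 2020 CPM over 201 cells. With Mesp1 only against neither, Peg3 and Phlda2 made 2 higher and 0 lower of 9 measured in the low class (4.38% higher and 10.6% lower), and with H19 they made 3 higher and 0 lower of 9 in the high class (2.64% higher and 5.1% lower). In the high class H19 was measured only through Mesp1 only cells, at 7.28 CPM against 3.12 CPM with neither. Peg3 was at 163 and 282 CPM in the low class and 120 and 171 CPM in the high class for T only and for both. With neither and with Mesp1 only, Peg3 was at 200 and 377 CPM in the low class and 64.4 and 140 CPM in the high class. Its lowest state in the low class was thus T only, and its highest state in the high class was T and Mesp1. The low class held 35.0% cells with both genes and the high class 21.5%, so class and state overlap.

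**Figure D4:**
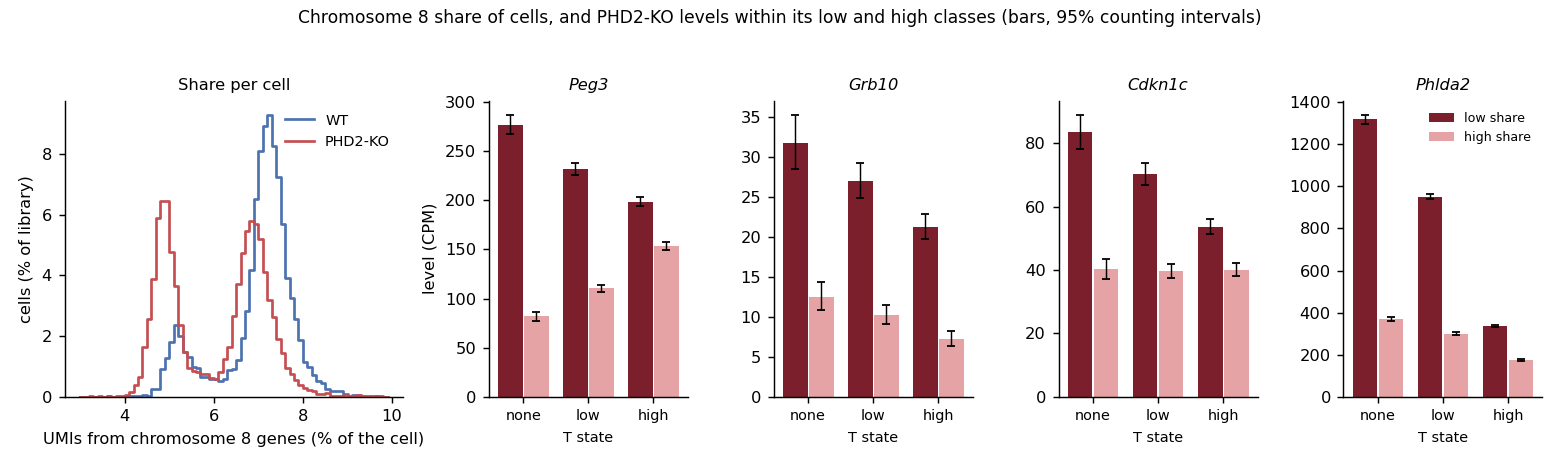
The left panel shows the percent of cells of each library by the share of a cell's UMIs from chromosome 8 genes, with peaks near the class means of 5.02% and 7.15%. The bars give levels in CPM of 4 genes by T state in PHD2-KO cells of the low and high class, with 95% counting intervals: all 4 are higher in the low class, and Peg3 falls along T there and rises in the high class.

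Grb10 lies on chromosome 11, whose share of UMIs was also uneven in the PHD2-KO library. The 95th percentile of cells was at 14.3% of UMIs there (median 10.3%), against 11.2% in WT (median 10.6%). The cells of high chromosome 11 share numbered 697 in PHD2-KO and 74 in WT. In cells of low share Grb10 was at 40.8 and 15.0 CPM, and in cells of high share at 39.6 and 26.8 CPM, a ratio of 0.676 (0.522 to 0.888) that is within the 1.5-fold mark. Chromosomes 6, 7 and 17, which hold the other 9 genes, had median shares of 3.70 and 3.73%, 11.2 and 11.2%, and 6.57 and 6.59% in WT and PHD2-KO cells.

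Of other imprinted genes, 29 paternally and 25 maternally expressed genes were read, of which 26 and 24 were found under their symbols. Of the 13 measured paternally expressed genes, 5 were called higher and 1 called lower, beside 11.7% and 2.35% of all measured genes. Their median log2 ratio was 0.45. Zdbf2, the most abundant of them in the PHD2-KO library, was at 68.4 CPM in WT and 152 CPM in PHD2-KO cells. Sfmbt2, a Polycomb group gene, was at 2.37 and 5.87 CPM. Nnat, a small membrane protein, was the lower gene, at 20.3 and 13.1 CPM, and Mcts2 was at 84.0 and 79.9 CPM. The other 3 higher genes, named after their values were seen, were Ndn (21.5 and 34.3 CPM), Sgce, the neighbour of Peg10 (6.54 and 10.3 CPM), and Usp29, the neighbour of Peg3 (2.45 and 5.54 CPM).

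None of the 11 other measured maternally expressed genes was called (0 higher and 0 lower, median log2 ratio 0.18). With 11.7% higher and 2.35% lower among all measured genes, a count of 0 in so short a list is near the background. Cd81, a membrane tetraspanin, was the most abundant at 199 and 225 CPM. Nap1l4 (54.4 and 75.5 CPM) and H13 (17.3 and 23.9 CPM) had the highest ratios, and Gatm (5.02 and 4.44 CPM) and Tssc4 (51.3 and 47.7 CPM) the lowest. Nap1l4, Tssc4 and Cd81 lie in the same part of chromosome 7 as Cdkn1c and Phlda2, and none of them passed the mark. Kcnq1ot1, the noncoding RNA that silences this cluster on the paternal allele, was at 45.7 and 62.9 CPM, and Meg3, another noncoding RNA, at 130 and 168 CPM. Kcnq1ot1 and Meg3 were named after their values were seen.

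**Figure D5:**
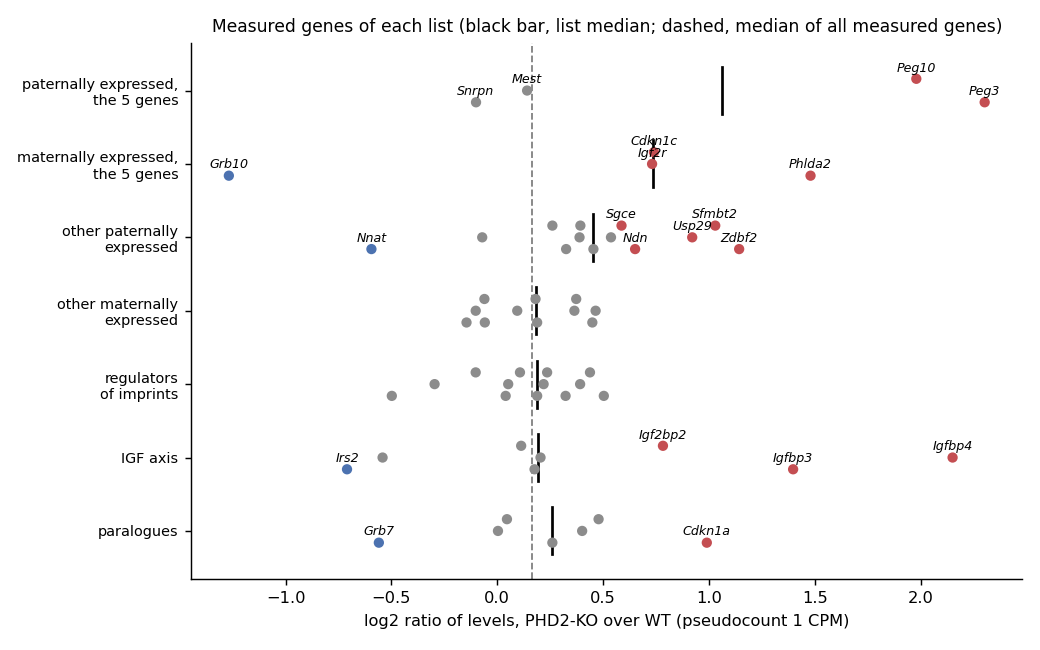
Log2 ratio of PHD2-KO over WT levels for the measured genes of each list, with higher calls in red, lower in blue and others in grey. Black bars are list medians, and the dashed line is the median of all measured genes (0.16). The other maternally expressed genes and the regulators of imprints hold no called gene.

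Regulators that set or keep imprints gave no call in 13 measured genes (0 higher and 0 lower, median log2 ratio 0.19), which is also near the background of 11.7% and 2.35%. Zfp445, a zinc finger protein that binds imprinting control regions, was at 5.68 and 8.46 CPM, and Setdb1, a histone methyltransferase, at 21.5 and 29.5 CPM. Dnmt3b, a de novo DNA methyltransferase, was at 117 and 82.8 CPM, and Hells, a chromatin remodeller and the most abundant of the list, at 195 and 159 CPM. Dnmt3b came nearest to a lower call, with a ratio of 0.706 (0.691 to 0.721).

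In the IGF axis, on which Igf2, Igf2r and Grb10 act, 3 of 8 measured genes were higher and 1 lower (all measured genes: 11.7% higher and 2.35% lower). The binding protein genes Igfbp4 (2.92 and 16.4 CPM) and Igfbp3 (30.9 and 83.1 CPM) were higher, as was the RNA-binding protein gene Igf2bp2 (6.92 and 12.6 CPM), named after its values were seen. Irs2, a docking protein of the receptors, was lower, at 21.2 and 12.6 CPM, and Igfbp2 was at 169 and 116 CPM. The list median was 0.19, near that of all genes, although Igfbp4 had a ratio of 5.62 (5.14 to 6.16). Igf2bp1, the most abundant of the list in PHD2-KO cells, was at 157 and 170 CPM.

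Among paralogues that are not imprinted, 1 of 7 measured genes was higher and 1 lower (all measured genes: 11.7% higher and 2.35% lower). Counts of 1 in so short a list are not read as a result. Cdkn1a, a relative of Cdkn1c, was the higher gene, at 158 and 315 CPM. Grb7, a relative of Grb10, was the lower gene, at 14.2 and 9.29 CPM. The relatives of Phlda2 lay between, with Phlda1 at 18.8 and 26.5 CPM, and so did Snrpb, the relative of Snrpn, at 512 and 513 CPM.

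The genes most like each called imprinted gene were sought among 4491 others of at least 20 CPM. Likeness was the root mean square difference of log2(CPM + 1), each gene centred on its own mean, over the 5 groups of library and T state with at least 50 cells. Amot (0.13) and then Peg10 (0.17) were nearest to Peg3 of all genes compared. Fn1 (0.12), Anxa5 (0.17) and Eomes (0.17) were nearest to Peg10. For Grb10 the nearest were Wipf3 (0.05), Myl9 (0.10) and Ltbp4 (0.10), and for Igf2r they were Trip11 (0.03), Ptpn18 (0.04) and Brwd1 (0.05). For Cdkn1c they were Btg2, Rbms1 and Plac8 (each 0.06). Phlda2 had no gene as near as the others had: Hmga2 was at 0.18, Msx2 at 0.28 and Gpc3 at 0.33. Hmga2 was at 68.0, 54.7 and 32.0 CPM in T none, T low and T high PHD2-KO cells.

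Because several of these genes are abundant in the placenta and in fetal support tissues, markers of other cell types were read in the same cells. Of 8 trophoblast markers 0 reached 5 CPM in WT and 1 did in PHD2-KO cells, Cdx2 at 1.30 and 16.4 CPM, which posterior mesoderm also expresses. Their summed level was 5.59 CPM in WT and 25.7 CPM in PHD2-KO cells, and it ran from 14.3 to 31.8 CPM over the PHD2-KO states, while Tpbpa, Prl3d1 and Prl2c2 had 0 UMIs in both libraries. Of 8 fibroblast markers (summed 2.96 and 4.67 CPM) and 8 endoderm markers (2.98 and 2.84 CPM) 0 reached 5 CPM in either library. Of 6 germ cell markers 2 did in each, with Dnd1 at 7.24 and 27.5 CPM (summed 20.7 and 43.0 CPM). The part of the trophoblast and germ cell markers in the results on Peg3, Peg10, Phlda2 and Cdkn1c was not tested. By state the trophoblast sum was 14.3 CPM with neither T nor Mesp1, 25.5 CPM with T only, 31.0 CPM with both and 29.1 CPM with Mesp1 only, and 1, 1, 3 and 3 of the 8 markers reached 5 CPM. Phlda2 was at 426, 238, 716 and 1444 CPM in the same order. The pluripotency markers summed to 1805 CPM in T none, 1235 CPM in T low and 945 CPM in T high PHD2-KO cells, the order of Phlda2. By T and Mesp1 they were not in its order. They summed to 1991 CPM with neither, 1082 CPM with T only, 1047 CPM with both and 1394 CPM with Mesp1 only. In WT T none cells the sum was 1419 CPM. The part of the pluripotency markers in the Phlda2 results was not tested.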

How the data were processed

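Each library came as a deposited matrix of UMI counts, whole numbers per gene and barcode without normalization. Per the file headers, the software was Cell Ranger 4.0.0, and the mm10 build and Seurat are named in the submitters' processing notes. Neither the sequenced end of the transcript nor the read depth is given in the labels. Groups came from the sample titles. Before any limit, WT had 9651 barcodes with 226179474 UMIs, and PHD2-KO had 7713 with 173470962.

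Cells with at least 1000 genes and at most 10% mitochondrial UMIs were kept. Scrublet (through scanpy 1.11.5) marked 0 cells in each library at its automatic threshold, so the highest doublet scores were removed at 0.8% per 1000 barcodes (712 and 456 cells). Doublets these scores miss remain. Levels have exact Poisson intervals, ratios exact conditional binomial intervals and shares exact binomial (Clopper-Pearson) intervals. The interval and call code was tested on simulated data. T states came from cells thinned to 14000 UMIs, which left out 773 WT and 644 PHD2-KO cells, and levels within states from the full counts of those cells. Chromosome classes came from a 2-component Gaussian mixture (scikit-learn 1.9.0) over the cells of both libraries, with GENCODE M21 coordinates for 27645 genes. The computation ran in Python 3.11.15.

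The 10 genes, the lists and the comparisons were chosen with earlier results of these data known. Besides the 10 genes, the text names up to 2 measured genes from each end of a list and its most abundant gene, the 3 genes most like each called gene (1 of them is not reported here), and markers, where other names are marked. Alternatives were other limits on cells, no doublet removal, other scaling, depth, chromosome classes, pseudocounts, filters, call sizes and T limits. Leaving out single cells and reading states within chromosome 8 classes were added after the data were seen.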

Additional observations from a re-analysis of the deposited data

How the results depend on the processing

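No paired analysis was possible because each group is 1 library. With a 2-fold in place of a 1.5-fold call, 3 imprinted genes were higher in PHD2-KO (Peg3, Peg10 and Phlda2) in place of 5. Peg3, Peg10 and Phlda2 kept their call in all 13 alternatives on cells, scaling and depth, with ratios from 3.39 to 5.77, from 2.64 to 5.22 and from 1.57 to 4.68. Grb10 kept its call in 12 of the 13, with ratios over all from 0.233 to 0.676, the last in cells of high chromosome 11 share. Cdkn1c was the 1 called gene whose direction turned between the libraries, with a ratio of 0.682 in cells of high chromosome 11 share (66.7 and 45.5 CPM), of which WT held 74. Along T in PHD2-KO cells, the lower calls numbered 2 with T high at 8 or more UMIs, 4 in cells of low and 2 in cells of high chromosome 8 share, in place of 1, and 1 gene was higher in the last in place of 0. In WT, T low against T none gave 1 higher gene in place of 2 with unthinned states, without doublet removal, or without the cell with the most H19 UMIs, where the H19 ratio was 0.892. No ratio exists for Igf2 in cells of high chromosome 11 share, where WT had 0 UMIs. The causes were not tested. All 60 alternative shares, from other thinning or a limit of 2 UMIs, moved beyond counting error. Genes near 5 CPM, and Igf2 and H19, are limited by depth.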
